A study of Macaca mulatta with 8 samples.

Results

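The genes described here make oestrogen in the ovarian follicle, control the enzymes that make it, or respond to it: CYP19A1, HSD17B1, NR5A2 and ESR2. They were taken by symbol, as every probe set whose platform annotation gives exactly 1 of these names. This gave 8 of the 52766 probe sets on the array, and 4 of the 14132 genes with a probe set of their own. CYP19A1 and HSD17B1 have 1 probe set each, and NR5A2 and ESR2 have 3 each. Where a gene has several, the brightest by its mean log2 value stands for the gene, and the others are given beside it.

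The cells were granulosa cells of rhesus macaques (Macaca mulatta), the somatic cells of the follicle, and RNA was measured on Affymetrix arrays, 1 per sample. Samples labelled PM-GC (4 arrays) came from follicles stimulated with follicle-stimulating hormone (FSH) alone, before maturation. Those labelled VVM-GC (4 arrays) came from follicles that received FSH and then human chorionic gonadotropin (hCG), an ovulatory stimulus that acts through the luteinizing hormone receptor, and matured in the animal. FSH treatment is thus common to both groups, and neither is an unstimulated control. The source labels speak of cells from cumulus-oocyte complexes and the design text of mural granulosa cells, the layer that lines the follicle wall. The labels give no age, strain, time after hCG, or animal or pool behind each array, so p-values measure only the spread between these samples, which may be technical.

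Oestrogen synthesis in the follicle is shared between cell layers. Theca cells turn cholesterol into androgens with enzymes that include CYP17A1, and granulosa cells under FSH convert these androgens with aromatase, the product of CYP19A1. HSD17B1 then reduces the weak oestrogen oestrone to oestradiol. NR5A2, also called liver receptor homolog, is an orphan nuclear receptor that binds DNA as a monomer, activates promoters of steroid enzymes and is abundant in granulosa cells. ESR2 encodes oestrogen receptor beta, the main oestrogen receptor of these cells. After the ovulatory surge the follicle turns from oestradiol to progesterone as it becomes a corpus luteum.

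After hCG, 3 of the 4 genes fell and 1 did not pass the test. CYP19A1 was 4.22-fold lower (95% interval 2.76 to 6.46), HSD17B1 3.74-fold lower (2.08 to 6.73) and NR5A2 2.85-fold lower (1.99 to 4.08). Of all 14132 genes, 12.5% fell by the same test, limma with Benjamini-Hochberg adjustment over all genes and a threshold of 0.05. By probe set, 5 of 8 fell, against 6.85% of all probe sets. The groups did not overlap, with all arrays after hCG lower, for these 3 genes and 5 probe sets, which was so for 15.4% of all genes and 10.9% of all probe sets. The receptor ESR2 differed by 1.15-fold, with an interval of 0.96 to 1.37, and none of its 3 probe sets passed. In bulk RNA such as this, fewer cells of a type and less RNA per cell cannot be told apart.

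**Figure D1:**
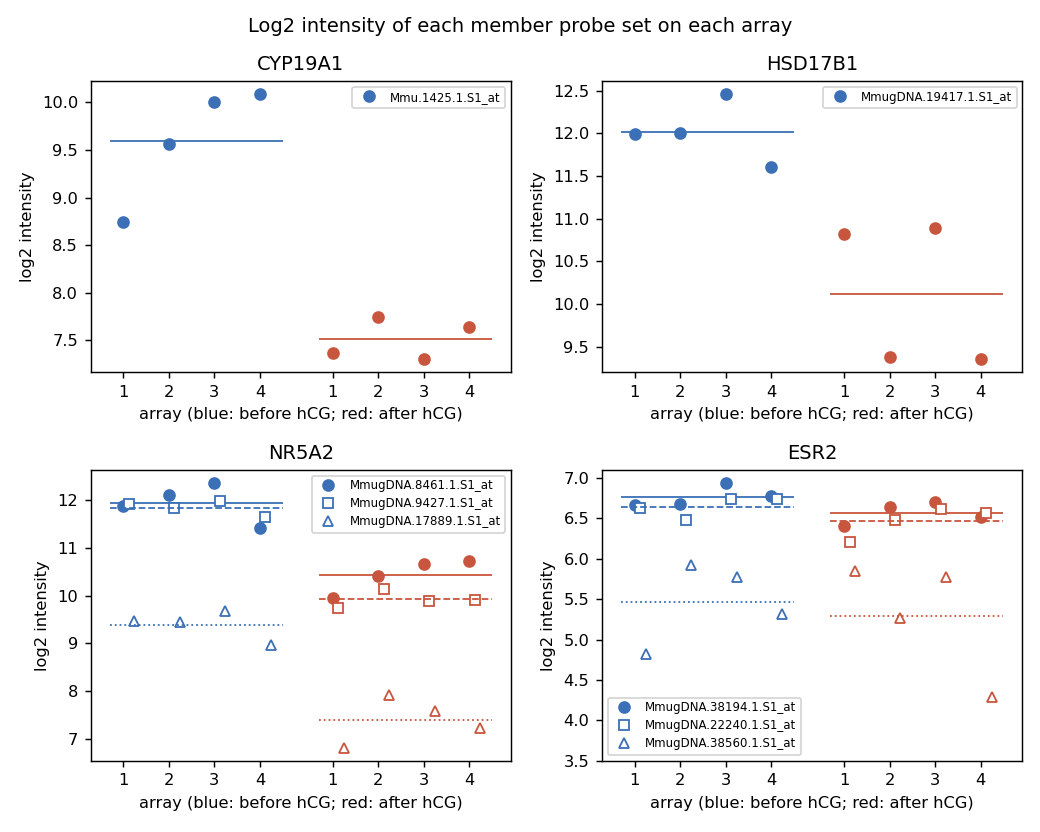
Log2 intensity of the 8 probe sets on each array, with before hCG in blue and after hCG in red; filled symbols are the probe set that stands for the gene and horizontal lines are group means. All arrays after hCG lie below all arrays before hCG for CYP19A1, HSD17B1 and the 3 probe sets of NR5A2, whereas the groups overlap for the 3 probe sets of ESR2.

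CYP19A1, aromatase, catalyses the step that makes the steroid an oestrogen. Its log2 intensity before hCG was 8.74, 9.56, 10.003 and 10.08 on arrays 1 to 4, and after hCG it was 7.37, 7.75, 7.31 and 7.64. The groups did not overlap, and a gap of 0.99 lay between the highest array after hCG and the lowest before it, array 1. The means were 9.60 ± 0.61 and 7.52 ± 0.21 (SD, n = 4 each), a log2 change of -2.08 (SE 0.27, limma adjusted p = 0.00053). Of the 14132 genes, 100 changed by this much or more in the downward direction, CYP19A1 included, and all 100 passed the test. The arrays before hCG also differed widely among themselves for this gene. Its SD there was 0.61, against a median of 0.19 over all genes, and only 289 genes had a larger one. After hCG its SD, 0.21, equalled the median of all genes at this rounding, 0.21. Without array 1 before hCG the change was -2.36, the largest of the 8 values obtained when each array was left out, and without array 4 before hCG it was -1.92, the smallest.

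HSD17B1, the reductase that makes oestradiol from oestrone, gave a high signal before hCG: 11.99, 12.00, 12.46 and 11.61. After hCG its arrays stood apart from each other, with 10.82 and 10.89 on arrays 1 and 3 and 9.38 and 9.36 on arrays 2 and 4. Every array after hCG was still below every array before it, by at least 0.72. The means were 12.01 ± 0.35 and 10.11 ± 0.86 (SD, n = 4 each), with a log2 change of -1.90 (SE 0.38, limma adjusted p = 0.00545). The spread after hCG was larger than that of nearly all genes, since 336 of 14132 had a larger SD. Leaving out either of the low arrays, 2 or 4, reduced the change to -1.66 or -1.65, and leaving out array 1 or 3 increased it to -2.14 or -2.16. CYP19A1 took the other order on the same 4 arrays: it was lower on arrays 1 and 3, where HSD17B1 was higher. With 4 arrays this is a description of these samples only.

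NR5A2, the nuclear receptor, was measured by 3 probe sets, with log2 changes of -1.51, -1.93 and -2.01, all past the threshold. The one with the highest mean (MmugDNA.8461.1.S1_at) read 11.88, 12.13, 12.37 and 11.42 before hCG and 9.95, 10.41, 10.67 and 10.73 after it. Its groups were separated by 0.69. The means were 11.95 ± 0.40 and 10.44 ± 0.36 (SD, n = 4 each), with a log2 change of -1.51 (SE 0.23, limma adjusted p = 0.0013 over genes). It showed the smallest change and the narrowest gap of the 3.

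The second NR5A2 probe set (MmugDNA.9427.1.S1_at) varied least within the groups. It read 11.93, 11.83, 11.99 and 11.66 before hCG and 9.74, 10.15, 9.89 and 9.92 after it, so the groups were 1.51 apart. Its SD was 0.15 before and 0.17 after hCG, and its log2 change of -1.93 had an SE of 0.12 (limma adjusted p = 1.14e-05 over probe sets). The third (MmugDNA.17889.1.S1_at) had a lower signal, 9.47, 9.45, 9.68 and 8.96 before hCG and 6.81, 7.91, 7.59 and 7.22 after it. It was 4.02-fold lower after hCG (limma adjusted p = 0.000393 over probe sets). The 95% intervals of the 3 changes overlapped, at -2.02 to -0.999 for the first, -2.20 to -1.65 for the second and -2.54 to -1.48 for the third. The mean of the 3 fell by 1.81. The exons and transcripts that each probe set covers are not used here, so differences between them were not traced to isoforms.

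ESR2, the oestrogen receptor, gave a modest signal, above the median of the array on all 8 arrays. Its main probe set read 6.66, 6.68, 6.93 and 6.78 before hCG and 6.402, 6.64, 6.70 and 6.52 after it. Array 3 after hCG lay above arrays 1 and 2 before hCG, so the groups overlapped, and array 1 after hCG was the lowest. The means were 6.76 ± 0.12 and 6.56 ± 0.13 (SD, n = 4 each), with a log2 change of -0.20 and a 95% interval of -0.46 to 0.06 (limma adjusted p = 0.253). The second probe set gave -0.18 (interval -0.45 to 0.10). The third, near the array median, gave -0.16 with a wide interval of -0.95 to 0.62, and its arrays ranged from 4.82 to 5.92 before and from 4.29 to 5.85 after hCG. A decrease of more than 1.37-fold therefore lies outside the interval of the main probe set, but a smaller one does not.

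**Figure D2:**
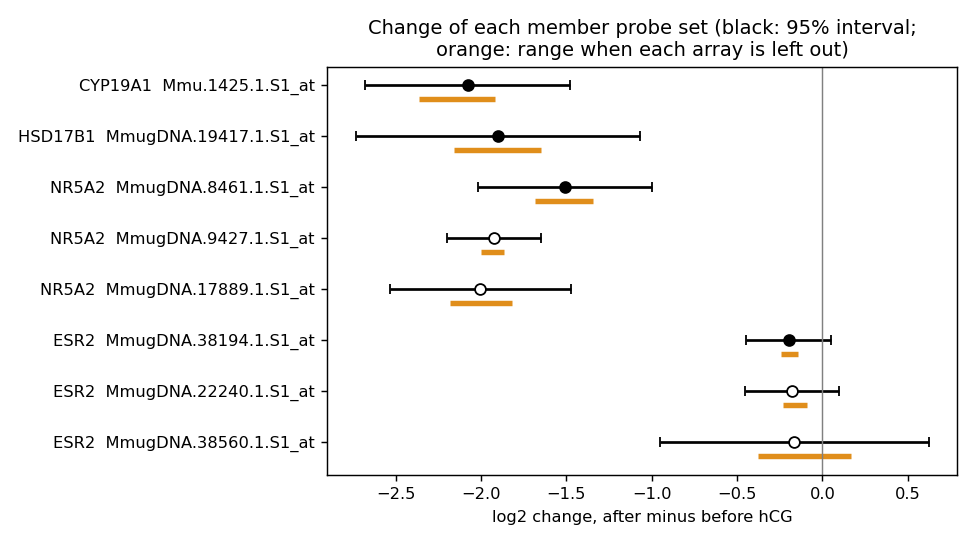
Log2 change of each probe set, after minus before hCG, with its 95% interval from limma in black and, in orange, the range of values when each array was left out in turn; filled points stand for the gene. The 5 probe sets of CYP19A1, HSD17B1 and NR5A2 lie between -2.08 and -1.51 with intervals below 0, and the 3 of ESR2 lie between -0.20 and -0.16 with intervals that include 0.

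Whether the genes changed by unequal amounts was examined within arrays, as the log2 value of one gene minus that of another. Only the shift of this difference between the groups is informative, since signals of different probe sets are not on one scale. Relative to ESR2, CYP19A1 shifted by -1.88, from 2.84 ± 0.53 to 0.96 ± 0.24 (SD, n = 4 each). The shift against ESR2 was -1.70 for HSD17B1 and -1.31 for NR5A2. For these 3 pairs the groups did not overlap, and each gave an exact two-sided permutation p of 0.0286, the smallest that 4 against 4 arrays allow. Adjusted over the 6 pairs it became 0.0571, which does not pass 0.05.

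Among the 3 genes that fell, differences in the size of the decrease were within the spread of the arrays. CYP19A1 against HSD17B1 shifted by -0.18 (SE 0.64, exact permutation p = 0.771), CYP19A1 against NR5A2 by -0.57 (SE 0.42, p = 0.2) and HSD17B1 against NR5A2 by -0.39 (SE 0.53, p = 0.429). With standard errors of this size, unequal decreases of the order of 1 log2 unit would not have been resolved. The NR5A2 probe set used here was the one with the smallest decrease. With probe sets averaged per gene, the shift against NR5A2 was -0.26 for CYP19A1 and -0.09 for HSD17B1. The spread of one pair differed between the groups as values: HSD17B1 minus NR5A2 lay between -0.12 and 0.19 on the arrays before hCG and between -1.37 and 0.87 after it. The 2 genes thus kept a near constant ratio from array to array before hCG and not after it, a difference that was not tested.

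**Figure D3:**
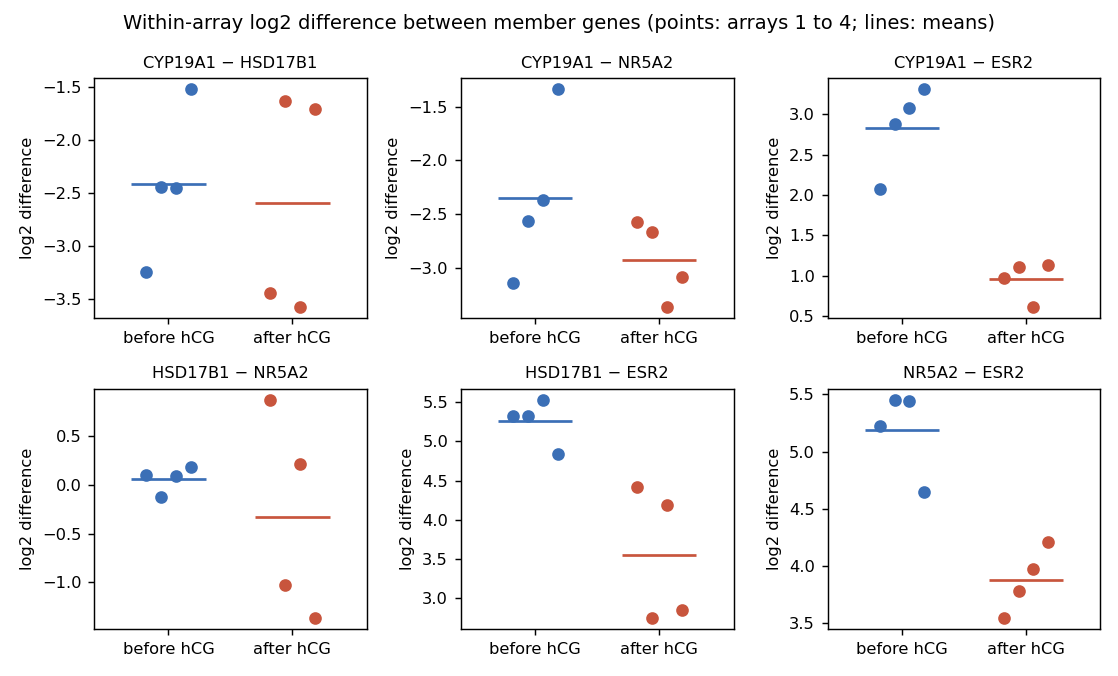
Within-array log2 difference for each pair of genes, 1 point per array and a line for each group mean, before hCG in blue and after hCG in red. The groups are separate in the 3 pairs that include ESR2 and overlap in the 3 pairs among CYP19A1, HSD17B1 and NR5A2.

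The rest of the pathway did not move as one. Of 14 listed proteins that supply steroid or make oestrogen, 11 were measured, and 5 fell, 3 rose and 3 did not pass (median log2 change -0.40, against -0.09 over all genes). Over all genes, 12.5% fell and 11.3% rose. Besides CYP19A1 and HSD17B1, the electron donor POR, which serves aromatase and CYP17A1 in the endoplasmic reticulum, fell by 1.94, with its 4 probe sets all lower. FDXR, the ferredoxin reductase that serves the mitochondrial side chain cleavage enzyme, fell by 1.41. Its partner FDX1 was at 12.46 before and 12.51 after hCG. STAR, which moves cholesterol into mitochondria, rose by 3.60, and all its arrays after hCG, at 11.90 to 13.11, were above all arrays before it, at 8.14 to 9.62. CYB5A, a cytochrome that assists the lyase activity of CYP17A1, rose by 1.91. HSD3B2, which makes progesterone and whose signal may include its close paralog, was at 10.10 ± 0.86 before and 9.95 ± 0.91 after hCG (SD, n = 4 each), and its change took either sign when single arrays were left out (-0.57 to 0.17).

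CYP17A1, the theca enzyme that makes androgen, the substrate of aromatase, was at 5.02 before and 4.55 after hCG. Both means lie below the array medians of 5.44 to 5.54. Its decrease of 0.47 passed (limma adjusted p = 0.0303), but the call was lost in 6 of the 8 fits that left out an array, namely without array 2, 3 or 4 before hCG or array 1, 3 or 4 after it (decreases of 0.39 to 0.47). The mean of its 2 probe sets differed by -0.19 and did not pass (adjusted p = 0.289).

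Within the HSD17B family, named for the position on the steroid at which these enzymes act, 6 genes were measured, a set chosen after the values were seen. HSD17B1 was the one that fell, 3 rose and 2 did not pass, where 12.5% of all genes fell and 11.3% rose. HSD17B7, which reduces oestrone like HSD17B1 and also acts in cholesterol synthesis, rose from 9.35 ± 0.42 to 12.27 ± 0.18 (SD, n = 4 each), a 7.58-fold increase (SE 0.20 on the log2 scale, limma adjusted p = 1.4e-05). Its arrays read 9.65, 9.75, 8.85 and 9.16 before hCG and 12.23, 12.23, 12.10 and 12.52 after it. All 3 of its probe sets rose, by 2.09 to 2.92. The 2 reductases therefore moved in opposite directions between the same samples.

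HSD17B2 works the other way and oxidises oestradiol to oestrone. It read 3.95 to 4.33 before and 4.87 to 5.59 after hCG and rose, from a mean of 4.13 to 5.13 (limma adjusted p = 0.00228). The array medians were 5.44 to 5.54, so its signal was low throughout. HSD17B8, another oxidising member, rose by 0.44 with an adjusted p of 0.0493, and the call was lost in 7 of the 8 fits that left out an array, all but the one without array 4 after hCG (increases of 0.36 to 0.47 in the 7). HSD17B4, an oxidising enzyme of peroxisomes, had means of 10.79 and 10.49 and did not pass, at an adjusted p of 0.268. Of the 16 listed genes of oestrogen inactivation and conjugation, 7 were measured, and 2 rose, none fell by limma and 5 did not pass (median 0.20). Both that rose belong to the HSD17B family, HSD17B2 and HSD17B8. Over all genes, 11.3% rose.

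**Figure D4:**
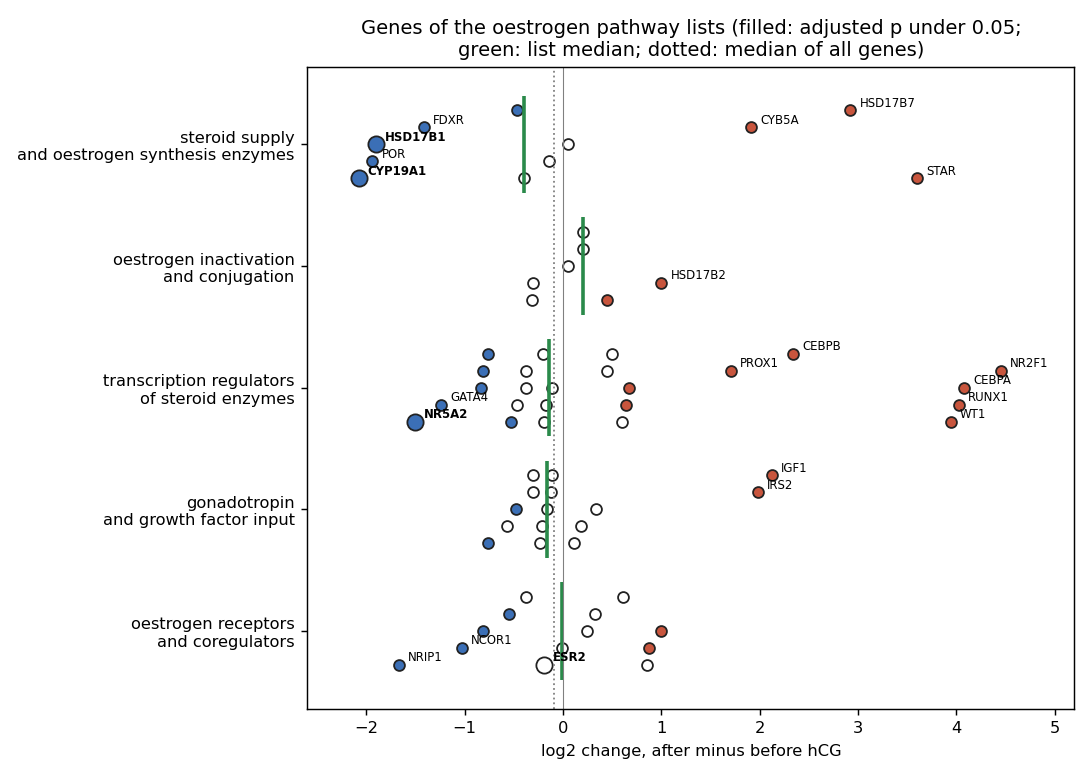
Log2 change, after minus before hCG, of each measured gene in 5 lists around oestrogen synthesis; filled points passed an adjusted p of 0.05, large points are the genes described in detail, green bars are list medians and the dotted line is the median of all genes (-0.09). Each list except that of inactivation and conjugation holds genes that fell as well as genes that rose, with CYP19A1, POR and HSD17B1 at the low end and STAR and HSD17B7 at the high end of the enzymes.

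Transcription regulators of steroid enzymes also split. Of 30 listed, 24 were measured, and 8 rose, 6 fell and 10 did not pass (median -0.14). Over all genes, 11.3% rose and 12.5% fell. NR5A2 fell furthest. Its relative NR5A1, steroidogenic factor 1, which binds the same DNA element, fell by 0.76 (SE 0.18) from 8.26. GATA4, a zinc finger factor of granulosa cells that acts on the aromatase promoter, fell by 1.24 (SE 0.17). NR0B1 and NR0B2, nuclear receptors without a DNA-binding domain that repress NR5A proteins, fell by 0.83 and 0.53. They fell from 5.03, below the array medians, and from 6.23, above them. NR4A1, an immediate early nuclear receptor, fell by 0.82, a call lost without array 1 or 2 before hCG (decreases of 0.70 and 0.79). These 5, all lower, were named after their values were seen. In the same list PROX1, NR4A2 and SIRT1 rose past the threshold, by 1.71, 0.67 and 0.64. For PROX1, 3 of 4 probe sets rose, and for NR4A2, 2 of 5, with a mean that did not pass (limma adjusted p = 0.147).

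Among those that rose, NR2F1, a nuclear receptor of the COUP family that can repress steroid enzyme promoters, went from 6.53 ± 1.14 to 10.98 ± 0.45 (SD, n = 4 each), a log2 change of 4.45 (SE 0.50). Both its probe sets rose. Array 2 before hCG, at 8.10, was the highest of its group. CEBPA and CEBPB, leucine zipper factors needed for luteinization in mice, rose by 4.08 (SE 0.50) and 2.34 (SE 0.25). Array 3 after hCG was the lowest of its group for CEBPA (8.54), CEBPB (11.48), RUNX1 (8.42) and WT1 (7.68), but not for NR2F1. That array was also lowest for the leukocyte markers PTPRC (3.89), LYZ (4.18) and TYROBP (6.19), but not for AIF1 or ITGB2. The part of other cell types in these increases was not tested. RUNX1 rose by 4.03, though 3 of its 7 probe sets passed and their mean rose by 0.97. WT1, the Wilms tumour factor, rose by 3.94 on one of its 2 probe sets and by 0.13 on the other. RUNX2 is counted as not past, since its brightest probe set differed by -0.20. However, 1 of its 5 probe sets rose past the threshold, with changes of up to 5.88. Their mean rose by 1.21 (limma adjusted p = 3.99e-05). ATF4, GATA6 and SMAD3 did not pass, at 12.96, 11.59 and 11.51 before and 12.78, 12.18 and 11.13 after hCG. GATA6 differed by 0.60 (limma adjusted p = 0.0704) and passed in 1 of 17 alternatives.

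Oestrogen receptors and their coregulators gave 4 lower, 2 higher and 7 not past among 13 measured of 21 listed (median -0.01). Of all genes, 12.5% were lower and 11.3% higher. NRIP1, a corepressor that binds oestrogen receptors in the presence of ligand, fell by 1.67 (SE 0.29), with its 3 probe sets all lower. NCOR1, a corepressor of nuclear receptors, fell by 1.02, and 2 of its 5 probe sets passed; the call was lost without array 2 or 3 before hCG or array 2 after it. NCOA3, a coactivator, rose by 0.87, with 2 of 6 probe sets past the threshold. ESR1, oestrogen receptor alpha, had a low signal, 5.17 ± 0.31 before and 4.35 ± 0.47 after hCG (SD, n = 4 each). Its decrease of 0.82 passed (limma adjusted p = 0.0362), but the groups overlapped and the call was lost in 6 of the 8 fits that left out an array, all but those without array 3 of either group (decreases of 0.64 to 0.82 in the 6). It was also lost with 32 added to each intensity (-0.37, adjusted p = 0.0586). MED1, a mediator subunit, fell by 0.55 on 1 of its 4 probe sets. Its call ended when the 4 were averaged (-0.24, adjusted p = 0.12) and without array 1 before hCG or array 1 or 2 after it. CITED2, a binder of CBP and p300, rose from 9.68 to 10.68, a call lost without array 2 or 4 before hCG or array 1 or 4 after it and with its 2 probe sets averaged (adjusted p = 0.0518). With single arrays left out, 1 to 4 genes of this list fell: 1 without array 2 after hCG, and 2 without array 1 or 2 before hCG or array 1 after it. GPER1, a membrane receptor for oestrogen, was at 5.50 before and 5.49 after hCG.

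In the list of gonadotropin and growth factor input, 15 of 20 genes were measured, and 2 rose, 2 fell and 11 did not pass (median -0.16). The shares, 13.3% higher and 13.3% lower, are near those of all genes, 11.3% and 12.5%. The receptors FSHR and LHCGR have no probe set with a single symbol and were not analysed here. IGF1, a growth factor that enhances FSH action, rose by 2.12 (SE 0.43), with its 4 probe sets all higher, and IRS2, an adaptor of insulin and IGF receptors, rose by 1.99 (SE 0.38). Array 3 after hCG was the lowest of its group for both, at 8.86 for IGF1 and 11.04 for IRS2. IGF2 fell by 0.76, and PDE8A, a phosphodiesterase that breaks down cAMP, fell by 0.48, a call kept only without array 1 or 2 after hCG among the fits that left out an array. PRKAR2B, a regulatory subunit of the cAMP-dependent kinase that FSH induces, had means of 12.21 and 11.90 and did not pass, at an adjusted p of 0.238.

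The genes whose pattern was most like each member were found, among 12992 genes whose symbol is not a LOC number, by the root mean square difference, over the 8 arrays, between log2 values that were each centred on their own mean. A small value means like size and like shape. Since the genes were chosen for this likeness, an order of arrays shared with the member follows in part from the choice. For CYP19A1 the nearest were RAD51AP1 at 0.26, C18H18orf54 at 0.27, RPA2 at 0.28 and FIGNL1 at 0.29. All 4 were lowest on array 1 before hCG, as CYP19A1 was. For HSD17B1 they were ME3 at 0.33, MITF at 0.35, LMO3 at 0.37 and DCAF4 at 0.39, and these were lower on arrays 2 and 4 than on arrays 1 and 3 after hCG, again like HSD17B1. The second probe set of MITF rose, by 1.22, so its likeness rests on the brighter one, and their mean did not pass (-0.26, adjusted p = 0.423). LMO3 fell on 1 of its 2 probe sets, and the other differed by -0.06. C18H18orf54 fell on 2 of its 3. After hCG RAD51AP1, C18H18orf54, FIGNL1 and LMO3 had low signals, at 4.02, 4.21, 3.93 and 3.77.

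NR5A2 had closer neighbours, with LDLRAD3 at 0.13, CHRNA5 at 0.23, ASPM at 0.24 and HSDL2 at 0.25. CHRNA5 and ASPM had low signals after hCG, at 4.56 and 3.96. For ESR2, with its small range, OR5D13 (0.05), RAD54L2 (0.05), ZIC2 (0.06) and DYNLL1 (0.06) were nearest, and none of these passed the test. The 3 genes that fell were not among each other's nearest. HSD17B1 stood in place 812 from CYP19A1 (0.79), NR5A2 in place 232 from CYP19A1 (0.59), and NR5A2 in place 334 from HSD17B1 (0.68). Places differ by the gene they are counted from. Counted from NR5A2, CYP19A1 stood in place 998 and HSD17B1 in place 2091, and from HSD17B1, CYP19A1 stood in place 749. After hCG the 3 genes each took a different order of the arrays. Before hCG HSD17B1 and NR5A2 took the same order and CYP19A1 another.

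**Figure D5:**
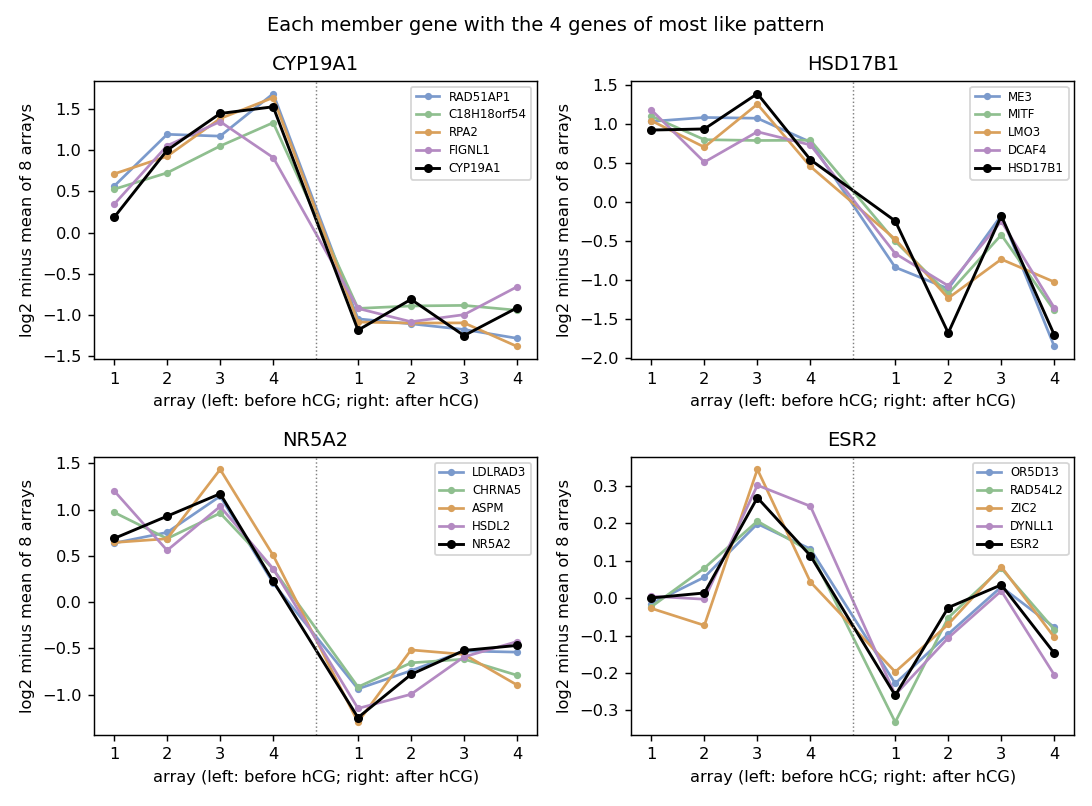
Log2 intensity minus the mean over the 8 arrays for each member gene (black) and the 4 genes of most like pattern (colours); lines only join the values of a gene, since arrays of a group have no order. CYP19A1 is lowest on array 1 among the arrays before hCG, and HSD17B1 is lowest on arrays 2 and 4 after hCG.

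Neighbouring genes were taken from the RefSeq annotation of assembly T2T-MMU8v2.0, by order only, because the build behind the probe sets is not given in the sources used here. TNFAIP8L3 and GLDN, on either side of CYP19A1, were not measured, nor was ATP6V0A1, whose annotated span overlaps that of HSD17B1. The genes on either side of HSD17B1 are NAGLU, a lysosomal glycosidase, and COASY, an enzyme of coenzyme A synthesis. They differed by -0.16 and -0.20 and did not pass (limma adjusted p = 0.321 and 0.37). Next to NR5A2, PTPRC, a leukocyte phosphatase, differed by -0.49 (adjusted p = 0.632), and the uncharacterised protein-coding locus LOC709633 on the other side fell by 2.22. The annotated span of ESR2 overlaps that of SYNE2, which links the nucleus to the cytoskeleton. SYNE2 fell by 1.25, on 3 of its 4 probe sets, where ESR2 did not pass. SGPP1 and MTHFD1, the genes on either side of ESR2, rose by 1.73 and fell by 0.59.

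Markers of granulosa cells and of other cell types were read on the same arrays. The granulosa list had 10 of 12 genes measured, 9 of them above the median signal, and 6 fell, 1 rose and 3 did not pass (median -0.63). The list includes CYP19A1. Among all genes, 12.5% fell and 11.3% rose. INHA, the inhibin alpha subunit, was at 14.07 ± 0.08 before and 13.50 ± 0.19 after hCG (SD, n = 4 each). It is one of the 6 that fell (limma adjusted p = 0.00723), with no overlap between the groups, and lay far above the array median on all 8 arrays. INHBA, the activin beta A subunit, fell by 1.65, GATM, an enzyme of creatine synthesis, by 1.71 and AMHR2, the receptor of anti-Müllerian hormone, by 0.98. AMH itself fell by 0.68, a call lost without array 1 or 3 before hCG or array 2 after it. KRT18, a keratin, was the marker that rose, by 2.25 on its brighter probe set, while its other differed by -0.24. SERPINE2, the brightest marker of the list, was at 14.55 before and 14.48 after hCG. It did not pass (limma adjusted p = 0.643), though 1 of its 4 probe sets fell. KITLG and KRT8 did not pass either, at 0.07 and -0.05. The defining markers FSHR and FOXL2 have no probe set with a single symbol. The log2 of the summed theca markers (6 of 9 measured) ranged from 9.30 to 9.997 before and from 9.02 to 9.66 after hCG, and CYP17A1 and ENPEP fell while the other 4 did not pass. ENPEP fell by 1.32 on 1 of its 3 probe sets, and their mean fell by 0.59 (limma adjusted p = 0.00219). For leukocytes (8 of 12) the ranges were 10.56 to 10.70 and 9.22 to 10.42, and CSF1R, the receptor of macrophage colony-stimulating factor, fell by 2.09. CSF1R was the brightest of these markers before hCG, at 9.44, and so weighs most in their sum there. After hCG it was at 7.35. The low end of 9.22 is array 3 after hCG. The other 7 leukocyte markers did not pass and took both signs: CD68, a macrophage lysosomal protein, differed by 0.84 on its brighter probe set (limma adjusted p = 0.0502, past the threshold in 6 of 17 alternatives), its other probe set fell by 0.62, and CD14 differed by 0.22 and PTPRC by -0.49. For endothelium (9 of 10) they were 9.27 to 9.55 and 9.47 to 10.30, for stroma and smooth muscle (7 of 10) 9.85 to 10.73 and 9.79 to 10.63, and for oocytes (9 of 13) 9.73 to 10.06 and 10.50 to 11.26. In the endothelial list ENG, a co-receptor for transforming growth factor beta, rose by 0.57 on 1 of its 2 probe sets, a call that ended when they were averaged (0.15, adjusted p = 0.259), and VWF differed by 1.26 without passing (adjusted p = 0.138). In the stromal list TAGLN, an actin-binding protein of smooth muscle, rose by 0.42. The mean of its 2 probe sets did not pass (adjusted p = 0.0844), and the call was lost in 5 of the 8 fits that left out an array, namely without array 1, 3 or 4 before hCG or array 1 or 3 after it. DCN, a matrix proteoglycan, differed by 0.92 without passing (adjusted p = 0.0844). In the oocyte list only KIT rose, by 3.07, while the egg coat and oocyte genes ZP1, ZP3, ZP4, BMP15, NLRP5 and FIGLA did not pass. KIT was the brightest of that list after hCG, at 10.06, and so weighs most in its sum there. The part of other cell types in the decreases of CYP19A1, HSD17B1 and NR5A2 was not tested.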

How the data were processed

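RNA of 8 granulosa cell samples was measured on rhesus macaque arrays. The deposited table holds linear intensity values, which the authors made with Affymetrix Expression Console and RMA, per the submitters' processing notes (versions not given in the sources used here). Of 52865 rows, 99 array controls were left out and log2 was taken. Symbols come from GEO's platform annotation, updated by gene ID: 24956 probe sets have 1 symbol, 361 several and 27449 none. Groups were compared with limma 3.58.1 in R 4.3.3 (lmFit, eBayes, two-sided), over 14132 genes and over all 52766 probe sets, with Benjamini-Hochberg adjustment at 0.05. The fit was tested on simulated data. There are no detection calls, and precision is limited by the small number of arrays. Array medians were 5.44 to 5.54 on the log2 scale. Correlations between arrays (Pearson, over probe sets) were 0.984 to 0.988 within PM-GC, 0.974 to 0.984 within VVM-GC and 0.935 to 0.957 between them. Pairs of genes were compared by exact permutation (scipy 1.17.1).

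The members, lists, markers and naming rule were chosen with earlier results of these data known. The rule names the members, the 5 largest changes past the threshold and the 2 brightest genes not past it in each list, the 4 nearest genes of each member, and the 2 brightest and any changed markers; others were chosen after their values were seen. Alternatives were another quantile normalization, median centring, 32 added to each intensity, a filter on low signals, averaged or most variable probe sets, a trended robust prior, array weights, the replicate number as a block, and leaving out each array. Same-numbered samples did not deviate together (correlations of -0.01 to 0.15), so the numbers were not taken as pairs.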

Additional observations from a re-analysis of the deposited data

Results flagged for a closer look

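No probe set of CYP19A1, HSD17B1, NR5A2 or ESR2 had an array far from the others of its group by Dixon's test. Of 188 groups of 4 arrays tested, over the pairs and 84 genes that include most of those named here, 11 had one. Chance alone gives about 1 in 20. The measure is the gap to the nearest array as a share of the group's range. Among regulators and coregulators it was 0.856 for ATF4 before hCG (12.65, nearest 13.03), 0.846 for CEBPB after hCG (11.48, nearest 12.36), 0.845 for NCOA3 before hCG (7.09, nearest 7.81), and 0.85 for NR0B2 before hCG (6.44, nearest 6.19). For HSD3B2 before hCG it was 0.887, with array 1 at 8.81 and the nearest at 10.46; CYP19A1 was also lowest on that array. For PDE8A after hCG it was 0.863 (7.99, nearest 8.44). Among markers it was 0.845 for INHA after hCG (13.77, nearest 13.43) and 0.859 for GLI1 after hCG (6.65, nearest 6.48). Among genes of like pattern it was 0.84 for ME3 before hCG (9.89, nearest 10.16), 0.967 for MITF before hCG (10.49, nearest 10.19) and 0.958 for RPA2 after hCG (7.84, nearest 8.12).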

How the results depend on the processing

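Under the 17 alternatives to the reported fit, the decreases of CYP19A1, HSD17B1 and NR5A2 kept their direction and passed, and ESR2 did not pass. With each array left out in turn the log2 change was -2.36 to -1.92 for CYP19A1, -2.16 to -1.65 for HSD17B1, -1.68 to -1.34 for NR5A2 and -0.24 to -0.14 for ESR2. Under the others it was -2.16 to -1.91, -2.01 to -1.86, -2.01 to -1.47 and -0.20 to -0.15. With the replicate number as a block the adjusted p was 0.00226, 0.00383, 0.0053 and 0.252, and 1509 genes were higher and 1554 lower in place of 1595 and 1764; no array before hCG correlated best with the array of its own number. The block cannot move a log2 change or a pairwise difference, by construction. The exact sign permutation p with it was 0.125 for each pair with ESR2, the smallest 4 pairs allow, and 0.375 to 0.625 for the others. With the block IGF2 had an adjusted p of 0.0528, MED1 0.057, NCOR1 0.0724, ESR1 0.078, HSD17B8 0.082 and TAGLN 0.058, each past the threshold without it. With 1 array left out, the exact test cannot go below 0.0571; CYP19A1 against HSD17B1 then ranged from -0.50 to 0.15.

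Changes that had not passed took the other sign in some settings, and the cause was not tested: FDX1 at -0.050 after quantile normalization and -0.011 with averaged probe sets (-0.063 to 0.14 with arrays left out), GSTP1 at -0.064 after quantile normalization (-0.10 to 0.13), GPER1 at 0.033 after quantile normalization, 0.035 after centring and 0.080 with array weights (-0.13 to 0.15), HSD3B2 at 0.13 with array weights (-0.57 to 0.17), and, with arrays left out, IGFBP4 (-0.28 to 0.046), MYH11 (-0.51 to 0.36), TYROBP (-0.33 to 0.42) and the third ESR2 probe set (-0.38 to 0.17). In the list of inactivation and conjugation 1 gene rose in place of 2 in 12 settings. In that of gonadotropin and growth factor input 1 fell in place of 2 in 9 settings. Among receptors and coregulators 1 rose in place of 2 in 5 settings, and 1 or 2 fell in place of 4 in 5 settings, 1 of these being the block and the other 4 each leaving out an array.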
